A study of Mus musculus with 20 samples.

Results

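Ribosome biogenesis genes encode the proteins that transcribe ribosomal RNA, cut and modify it, and assemble the ribosomal subunits in the nucleolus. The set described here was a list of 43 genes, chosen by name with earlier results of these data known. Of these, 42 had a row among the 24391 genes counted in each sample. The large subunit assembly gene Noc2l was not analysed here. The 20 samples all came from E2-10HA, a mouse hybridoma that the labels call mature T cells and that, as a hybridoma, descends from a fusion with a tumour line, and the series set out to follow gene expression after overexpression of the Notch intracellular domain (NICD) and after loss of the histone variant H2A.Z. CRISPR control samples (n = 6) carried lentiCRISPRv2 without a guide. H2A.Z guide samples (n = 6) carried lentiCRISPRv2-sgH2afv/H2afz, which targets the H2A.Z genes H2afz and H2afv, and all 6 titles carry the number of a single line. Both CRISPR groups were selected with puromycin. BioNICD samples carried pLXSP-BirA, for a bacterial biotin ligase, with either biotin-tagged NICD of wild type sequence (n = 2) or the form labelled DEP (n = 2), in the vector pMY with GFP, and were selected with histidinol and by sorting. NICD-ER samples carried Flag-tagged NICD fused to the hormone-binding part of the estrogen receptor in pMIGRI with GFP, were sorted, and received ethanol (n = 2) or the receptor ligand (Z)-4-hydroxytamoxifen, 4-OHT (n = 2), for 24 hours. Each construct was thus represented by 1 line or pool of E2-10HA cells, and no label names a separate culture for each replicate. The p-values therefore rest on a spread between samples that could be technical. Replicates 1 and 2 of each CRISPR group were labelled with a treatment field and replicates 3 to 6 were not, and they were handled as submission set 1 and submission set 2. All NICD samples have the field and belong to set 1. For 6 of the 8 set 2 samples title and description disagree on the group, and the title was followed because the integrated plasmid matches it.

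Ribosome production begins with RNA polymerase I, which transcribes the ribosomal RNA precursor. Small nucleolar ribonucleoproteins (snoRNPs) then guide its methylation and pseudouridylation, the small subunit processome folds and cleaves the part that becomes the small subunit RNA, and a separate series of factors builds the large subunit. Growing lymphocytes and T cell tumours make ribosomes at a high rate, and the transcription factor Myc is known to activate many of these genes. NICD is the part of the Notch receptor that enters the nucleus, where it acts with the DNA-binding protein RBPJ. H2A.Z is a histone H2A variant found at many promoters.

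Promoter sequences show what motifs the members carry before their start sites. RefSeq sequences on GRCm38.p6, another build than the counts' mm9, were at hand for 36 of the 42 members, and Fbl, Npm1, Rrp12, Bop1, Rrs1 and Srm were not matched. Over the 250 bases before the start and on both strands, the Myc and Max E-box CACGTG occurred in 2 of 36 members (5.56%), against 6.86% of all 27025 genes of the table. Those members were Nop2 and Utp18, which are shown for that reason, and Gnl3 is shown because it had the largest fall of any member with wild-type BioNICD. Capitals mark matches to the E-box, the ETS core CCGGAAG and the Sp1 motif GGGCGGG, in either orientation.
Nop2 (chr6:125131633-125131882, plus strand): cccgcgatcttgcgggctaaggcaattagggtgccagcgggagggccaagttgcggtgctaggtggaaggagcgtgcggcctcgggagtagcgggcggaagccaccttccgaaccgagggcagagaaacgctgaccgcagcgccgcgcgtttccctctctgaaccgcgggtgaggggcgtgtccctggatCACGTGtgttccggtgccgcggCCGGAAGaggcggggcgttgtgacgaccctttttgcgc
Utp18 (chr11:93885767-93886016, minus strand): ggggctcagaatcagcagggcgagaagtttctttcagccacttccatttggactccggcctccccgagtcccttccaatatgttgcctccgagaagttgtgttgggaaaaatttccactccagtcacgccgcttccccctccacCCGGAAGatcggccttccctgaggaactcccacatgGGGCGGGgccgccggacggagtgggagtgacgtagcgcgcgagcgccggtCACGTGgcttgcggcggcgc
Gnl3 (chr14:31019132-31019381, minus strand): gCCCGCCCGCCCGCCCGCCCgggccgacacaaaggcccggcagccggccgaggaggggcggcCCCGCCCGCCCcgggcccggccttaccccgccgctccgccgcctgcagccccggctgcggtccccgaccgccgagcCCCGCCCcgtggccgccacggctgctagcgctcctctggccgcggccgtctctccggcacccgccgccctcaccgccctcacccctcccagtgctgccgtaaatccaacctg
The E-box began 60 bases before the start in Nop2 and 20 bases before it in Utp18, and each of these promoters also had 1 ETS core. Gnl3 had neither, and its 7 Sp1 matches, some of which overlap, were the most in any member. Over the members the Sp1 motif was found in 17 of 36 (47.2%, against 25.7% of all genes) and the ETS core in 7 (19.4%, against 7.83%). The RBPJ motif GTGGGAA was in 3 members (8.33%, against 6.18%), the CCAAT box in 10 (27.8%, against 37.5%) and the TATA box TATAAA in 2 (5.56%, against 14.3%). The NRF1 motif GCGCATG and the YY1 motif ATGGCGG were each in 2 members. A match describes the letters in this window and does not show that a factor binds there.

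The samples held 10704131 to 48238324 counts, of which the members took 0.398% to 0.647%. Levels are given in CPM, counts scaled to library size with TMM factors over all 20 samples. Control replicate 6 and guide replicates 5 and 6 stood apart with 6.73% to 7.67% of their counts on Rn45s, the ribosomal RNA precursor, against 1.84% to 4.53% in the other 17 libraries. The libraries were depleted of ribosomal RNA, so Rn45s was not read as a level of the precursor. Both targeted genes were lower in every guide sample than in any control, with H2afz at 4.57 to 5.70 CPM against 24.7 to 31.0 and H2afv at 27.4 to 56.9 CPM against 117 to 149. Hey1, a Notch target, was at 432 to 434 CPM with wild-type BioNICD against 0.238 to 0.706 with DEP, and at 42.4 to 47.7 CPM with 4-OHT against 0.387 to 0.618 with ethanol. Reads on Notch1, which the NICD constructs also give, were at 273 to 289 CPM with wild-type BioNICD and at 629 to 662 CPM with DEP, so the constructs were not at equal RNA levels. H2afv was itself at 64.5 to 71.7 CPM with wild-type BioNICD against 119 to 122 with DEP. Of 10 T cell markers listed, Cd3e, Cd3g, Cd3d, Thy1 and Ptprc were at 73.9 CPM or more in every sample, while Cd5 did not exceed 0.494 CPM. Levels of Cd247, Cd28, Lck and Trat1 are not given. Of the 10, 1 rose and 4 fell with 4-OHT, and 5 rose and 2 fell with wild-type BioNICD. The test and the shares of all genes are given below. All 4 B cell markers and Epcam and Krt18 were at 0.241 CPM or less. Of the myeloid markers, Itgam was at 61.2 to 62.8 CPM with wild-type BioNICD, with Lyz2, Csf1r and Cd14 near 0 there. Col1a1 and Col3a1, fibroblast genes, were at 8.01 to 11.7 CPM in replicate 1 of both CRISPR groups and near 0 elsewhere. What part these libraries and markers have in the results was not tested. The exceptions are the values given without single libraries and without the 3 libraries high in Rn45s. In bulk RNA, fewer cells of a type and less RNA per cell cannot be told apart.

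With the H2A.Z guides most members that changed were higher, while both NICD comparisons gave mostly lower levels. All 42 members passed the filter on low counts in every fit. Against the CRISPR control, 22 members rose and 4 fell with the guides, where 31.8% of 10662 genes tested rose and 32.7% fell. 4-OHT lowered 27 members and raised 1, against 17.2% and 19.0% of 12499 genes. Wild-type BioNICD lowered 31 members relative to DEP and raised 3, against 33.6% and 32.0% of genes. The list was made with earlier results of these data known, so these shares describe it and test nothing. Of the other genes of the pathway, given below, the guides raised 30.3% and lowered 27.3%. The median log2 fold change of the members was 0.16 with the guides (all genes -0.01), -0.17 with 4-OHT (all genes near 0) and -0.28 with wild-type BioNICD (all genes -0.02). Below 0 stood 40 of 42 members with 4-OHT and 35 with wild-type BioNICD, and 30 were above 0 with the guides. A call is an adjusted p under 0.05 by edgeR's quasi-likelihood test over all genes. The size of these changes was modest: log2 fold changes of members ran from -0.53 to 0.61 with the guides, from -0.49 to 0.38 with 4-OHT and from -0.90 to 0.28 with wild-type BioNICD.

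**Figure D1:**
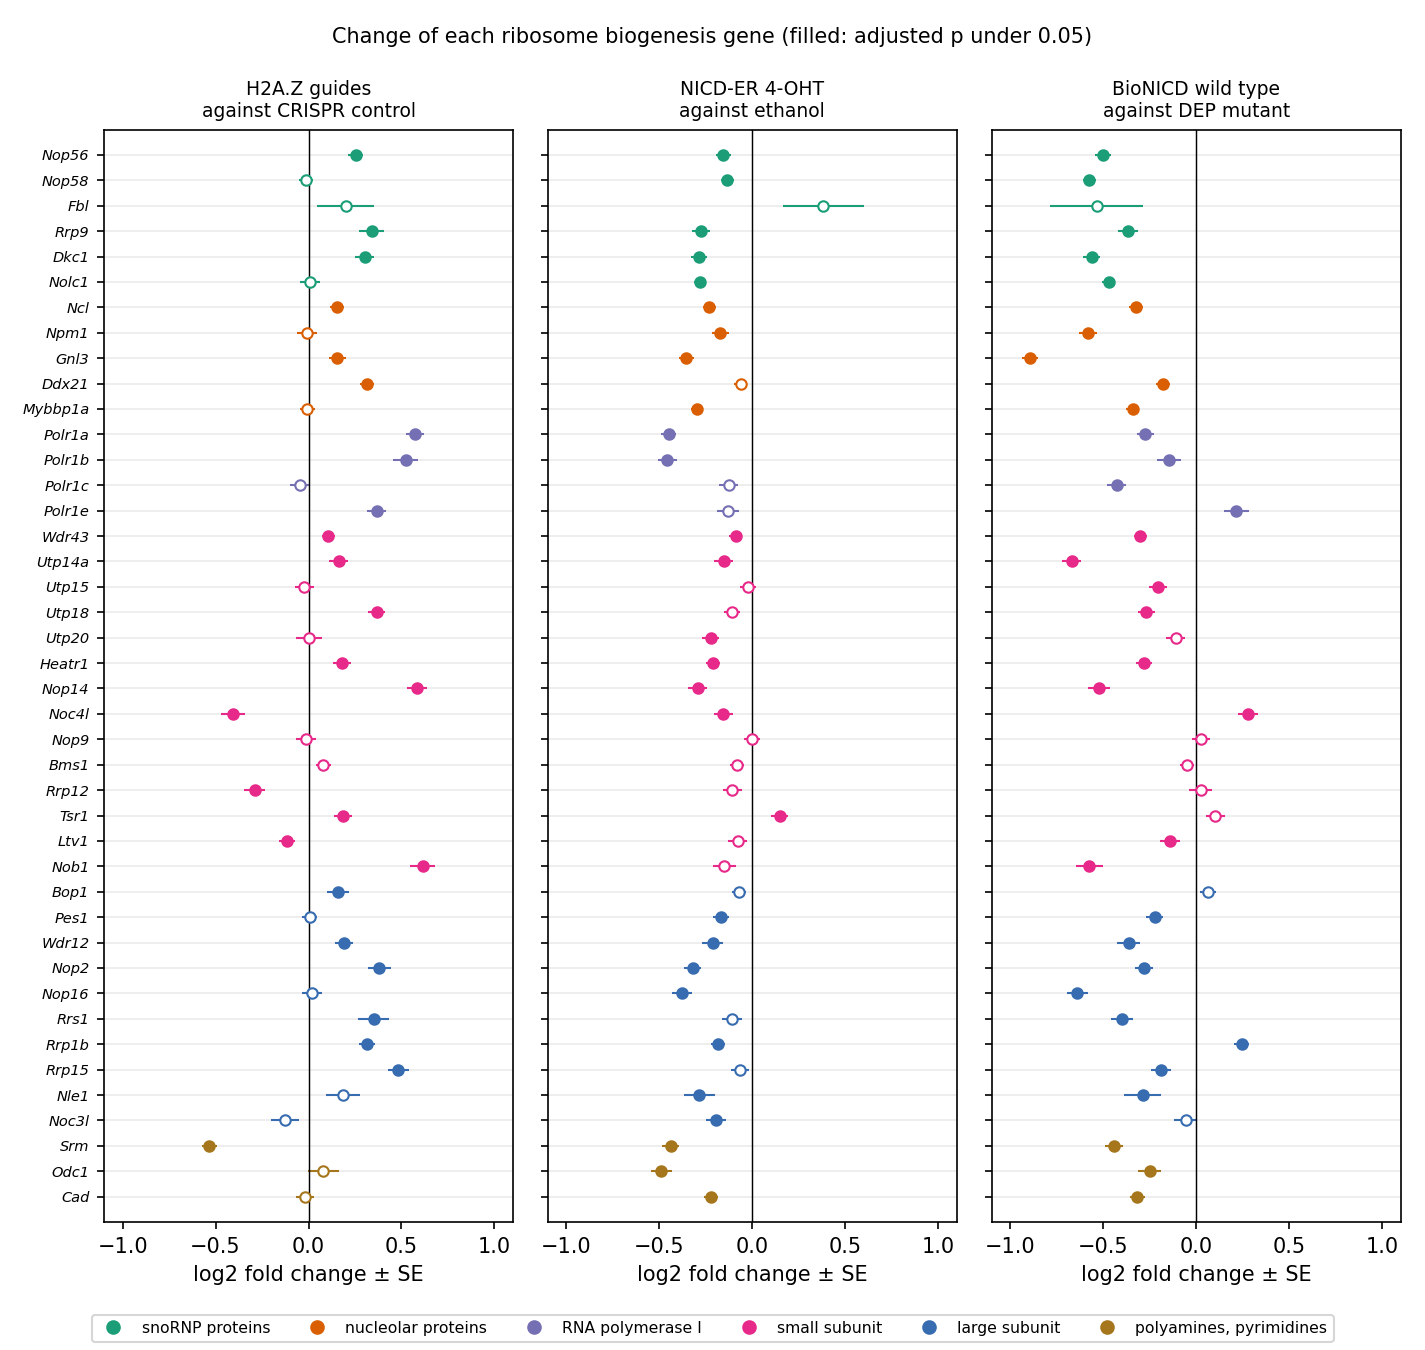
Log2 fold change of each of the 42 genes (vertical axis, grouped by role) in the 3 comparisons, with the standard error as a bar and filled points where the adjusted p was under 0.05. Most points lie right of 0 with the H2A.Z guides (30 of 42) and left of 0 with 4-OHT (40 of 42) and with wild-type BioNICD (35 of 42).

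The NICD comparisons share no samples, although they share an estimate of the spread. Of the 27 members lowered by 4-OHT, 23 (85.2%) were also lowered by wild-type BioNICD, which makes 74.2% of the 31 there. Over all genes tested, 1294 were lowered in both, 60.3% of the 2145 lowered by 4-OHT and 30.8% of the 4195 lowered by wild-type BioNICD. Of all 42 members, 4-OHT lowered 64.3% and wild-type BioNICD 73.8%, against 17.2% and 33.6% of genes. A large overlap follows from such high shares, so it adds little to the counts and is no independent support.

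Levels differed between submission sets more than between guides and control. The summed level of the 42 members was 4250 and 4261 CPM in the set 1 controls and 5787 to 5931 CPM in the set 2 controls, a mean 37.1% higher. Guide samples held 4490 and 4701 CPM in set 1 and 6413 to 6518 CPM in set 2. No guide sample overlapped the controls of its own set, with means 7.99% higher in set 1 and 10.8% higher in set 2. In the controls, 36 of 42 members had all set 2 samples above both set 1 samples, against 27.7% of genes, and 2 had all of them below, against 29.8%. In the guide samples 32 members lay above, against 25.9% of genes, and 0 below. The labels do not say what set the sets apart. The set was therefore a term in the guide comparison. Each set alone gave the same sign of the guide effect for 30 of 42 members, among them all 22 called higher and all 4 called lower. Those calls were made on both sets together, so their agreement in sign is partly built in and is no replication. When each set was fitted alone, 7 members were called in both. Neither this count nor that of signs was made for other genes, so no share over all genes stands beside them. Alone, set 1 with 2 samples a group called 5 higher and 2 lower (14.6% and 13.0% of genes), and set 2 with 4 a group called 25 and 5 (35.7% and 36.4%). Within set 1, which holds 2 samples of every group, the summed level was 5470 and 5473 CPM with ethanol, 4706 and 4815 with 4-OHT, 4727 and 4830 with DEP, and 3833 and 3900 with wild-type BioNICD. The mean was 13.0% lower with 4-OHT than with ethanol and 19.1% lower with wild-type BioNICD than with DEP, and samples did not overlap in either pair.

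**Figure D2:**
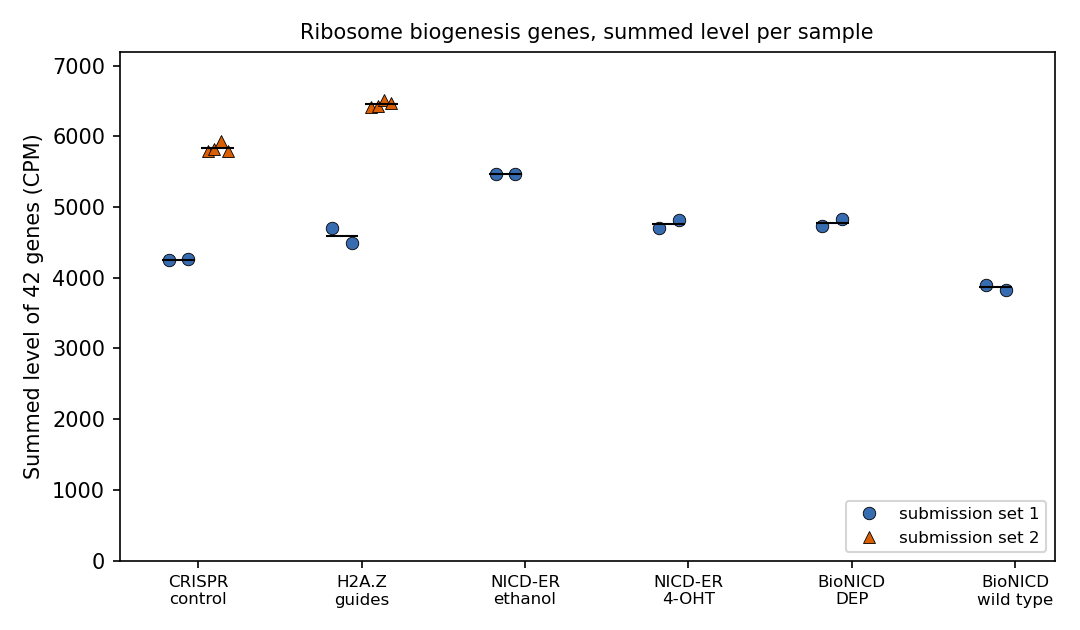
Summed level of the 42 genes in CPM (vertical axis) in each sample of the 6 groups (horizontal axis), with circles for submission set 1, triangles for set 2 and lines for the means. The set 2 triangles (5787 to 6518 CPM) lie above every circle (3833 to 5473 CPM), and within set 1 the ethanol samples are the highest and the wild-type BioNICD samples the lowest.

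Among the RNA polymerase I subunits, Polr1a, Polr1b and Polr1e rose with the guides, and Polr1c (-0.05) was not called. Polr1a (mm9 chromosome 6, 71859047 to 71929355) encodes the largest, catalytic subunit. Its level was 95.1 and 80.1 CPM in the set 1 controls, 116, 108, 114 and 109.8 in the set 2 controls, 143 and 134 in the set 1 guide samples and 161, 161, 173 and 156 in the set 2 guide samples. Every guide sample was above every control (log2 fold change 0.57 ± 0.05 (SE), adjusted p = 3.91e-08). 4-OHT samples held 99.5 and 105 CPM against 142 and 138 with ethanol (log2 fold change -0.45 ± 0.04 (SE), adjusted p = 4.9e-09). Wild-type BioNICD samples held 90.8 and 84.7 CPM against 104 and 108 with DEP, again without overlap (log2 fold change -0.27 ± 0.04 (SE), adjusted p = 9.66e-06). Polr1b (mm9 chromosome 2, 128926732 to 128952331) encodes the other large catalytic subunit. Levels were 25.4 and 23.6 CPM in the set 1 controls and 29.98 and 28.6 with the guides there, and 43.5, 37.8, 42.8 and 44.8 against 65.7, 62.9, 66.2 and 68.1 in set 2. The guide effect (log2 fold change 0.52 ± 0.07 (SE), adjusted p = 4.57e-06) was 0.26 in set 1 alone, where it was not called (adjusted p = 0.180), and 0.64 in set 2. The groups did not overlap within either set, and the effect differed between sets, as it did for 5 members higher in set 2 (8.19% of genes) and 0 lower (7.49%). DESeq2 also called 0 lower, and by edgeR's test 1 member was lower at an unadjusted p under 0.05. The difference for Polr1b was 0.37 ± 0.11 (adjusted p = 0.0322). These 5 calls are not stable, with 0 to 10 members called higher when 1 sample is left out (0 without control replicate 1, 10 without guide replicate 2, which also gave 9 lower). 4-OHT lowered Polr1b from 54.9 and 56.1 CPM to 39.3 and 41.1 (log2 fold change -0.46 ± 0.05 (SE), adjusted p = 1.97e-07). With wild-type BioNICD it was 28.1 and 27.4 CPM against 30.1 and 31.0 with DEP (log2 fold change -0.15 ± 0.06 (SE), adjusted p = 0.0461), a call lost under 8 of 10 alternatives.

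Polr1e, a subunit that takes part in initiation, was raised by wild-type BioNICD. Its samples held 31.2 and 31.2 CPM with wild type and 27.7 and 25.8 with DEP (log2 fold change 0.22 ± 0.07 (SE), adjusted p = 0.00747), and the call is lost without DEP replicate 2. 4-OHT gave -0.13, not called, and the guides 0.37 ± 0.05. Polr1c, a subunit shared with RNA polymerase III, fell with wild-type BioNICD (-0.43 ± 0.05) and stood at -0.13 with 4-OHT, not called. Of 12 other genes of the polymerase I machinery, 11 were tested, and 5 rose and 3 fell with the guides, where 31.8% and 32.7% of all genes did. These included further subunits that fell there: Znrd1 (log2 fold change -1.77 ± 0.07 (SE), adjusted p = 4.4e-12) and Polr1d (-0.84 ± 0.06), the latter chosen after its value was seen. The subunits named here thus did not move in 1 direction with the guides.

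**Figure D3:**
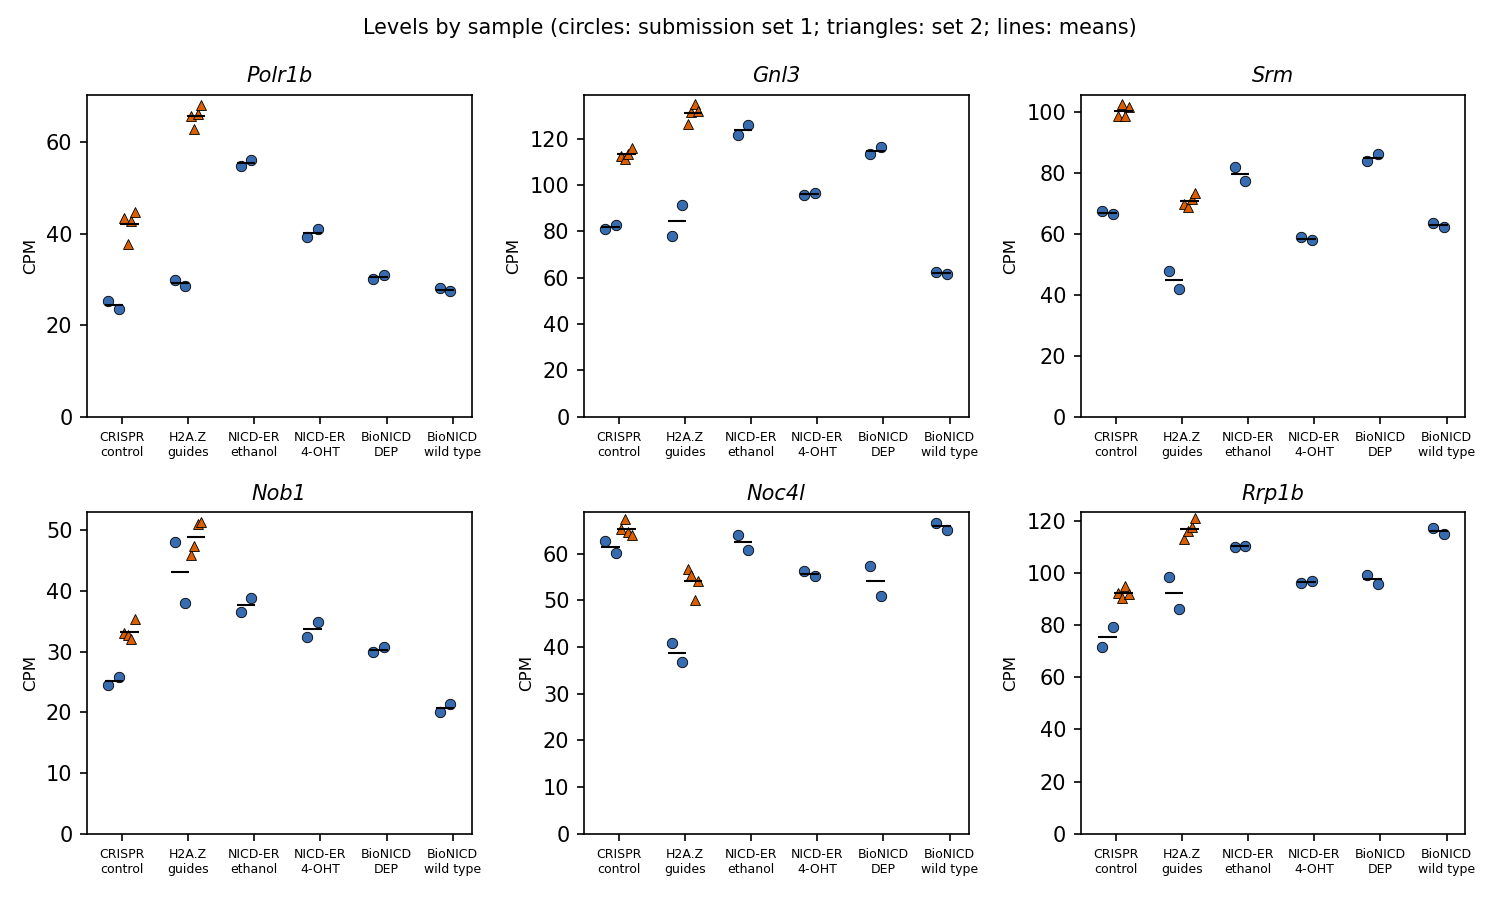
Level in CPM (vertical axes, starting at 0) of 6 genes in each sample of the 6 groups, with circles for submission set 1, triangles for set 2 and lines for the means of each. Polr1b and Nob1 are higher with the guides than in the controls of the same set and Srm and Noc4l lower, and Noc4l and Rrp1b are higher with wild-type BioNICD than with DEP while the other 4 are lower.

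Among the snoRNP proteins, 3 of 6 rose with the guides (31.8% of all genes did) and the other 3 were not called. With 4-OHT 5 fell (17.2% of genes), and 5 fell with wild-type BioNICD (33.6%). Nop56 and Nop58 form the scaffold of box C/D snoRNPs, which guide methylation. Nop56 rose with the guides (0.25 ± 0.04) and Nop58 was not called there (-0.01 ± 0.04). Wild-type BioNICD samples held 80.5 and 80.2 CPM of Nop56 against 109.7 and 116 with DEP (log2 fold change -0.50 ± 0.04 (SE), adjusted p = 3.41e-10). For Nop58 they held 176 and 180.4 CPM against 261 and 266 (log2 fold change -0.58 ± 0.03 (SE), adjusted p = 8.33e-13). Both also fell with 4-OHT, by 0.16 and 0.13 on the log2 scale, calls lost under 1 and 2 of 10 alternatives. Dkc1, the pseudouridine synthase of H/ACA snoRNPs, rose by 0.30 ± 0.05 with the guides. It held 87.6 and 91.8 CPM with wild-type BioNICD against 129.9 and 132 with DEP, and 121 and 130.4 with 4-OHT against 150.3 and 158 with ethanol, log2 fold changes of -0.56 and -0.29. Rrp9, a protein of the snoRNP that takes part in the first cuts of the precursor, was raised by the guides (0.34) and lowered by 4-OHT (-0.27) and wild-type BioNICD (-0.37). Nolc1, a snoRNP chaperone, was lowered by both (-0.28 and -0.47) and not called with the guides (0.01). Fbl, the box C/D methyltransferase, was at only 1.80 to 4.55 CPM and was called in none of the 3 comparisons. A near-identical pseudogene, Gm5812, covers 82.2% of its transcript, so the Fbl counts are uncertain.

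Of the 5 nucleolar proteins, 3 rose with the guides (31.8% of all genes did) and the other 2 were not called. With 4-OHT 4 fell (17.2% of genes), and all 5 fell with wild-type BioNICD (33.6%). Gnl3 (mm9 chromosome 14, 31825619 to 31832317) encodes nucleostemin, a GTP-binding nucleolar protein of proliferating cells whose promoter is shown above. Its level was 62.7 and 61.5 CPM with wild-type BioNICD and 113 and 116 with DEP, the largest fall of the 42 members in that comparison (log2 fold change -0.90 ± 0.04 (SE), adjusted p = 9.66e-15). 4-OHT samples held 95.7 and 96.8 CPM against 121 and 126 with ethanol (log2 fold change -0.35 ± 0.04 (SE), adjusted p = 1.17e-07). Set 1 guide samples (77.9 and 91.4 CPM) overlapped the range of the controls (81.1 and 82.8), while in set 2 all guide samples (126 to 135) were above the controls (111 to 116). Npm1 (mm9 chromosome 11, 33052498 to 33063206) encodes nucleophosmin, a histone and ribosome assembly chaperone. It held 257 and 259.6 CPM with wild-type BioNICD against 358 and 409.9 with DEP (log2 fold change -0.58 ± 0.05 (SE), adjusted p = 1.4e-10) and 262 and 275 with 4-OHT against 298 and 310.0 with ethanol (log2 fold change -0.17 ± 0.05 (SE), adjusted p = 0.00479). The 4-OHT call of Npm1 is lost under 2 of 10 alternatives. The guides left Npm1 uncalled (-0.01 ± 0.05), and a near-identical copy, Gm5611, covers 53.6% of its transcript. Ncl encodes nucleolin, an abundant RNA-binding protein of the nucleolus, and held 578 and 547 CPM with wild-type BioNICD against 703 and 699 with DEP and 802 and 810.1 with 4-OHT against 968 and 934 with ethanol. It fell in both (-0.33 and -0.23) and rose with the guides (0.15 ± 0.04). Ddx21, an RNA helicase that works at polymerase I genes and on snoRNAs, rose with the guides (0.31) and fell with wild-type BioNICD (-0.18). With 4-OHT it was not called (-0.06). Mybbp1a, a nucleolar Myb-binding protein, fell in both NICD comparisons (-0.30 and -0.34) and was not called with the guides (-0.01).

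The 14 small subunit members gave 7 rises and 3 falls with the guides, where 31.8% and 32.7% of all genes rose and fell. With 4-OHT 6 fell and 1 rose (17.2% and 19.0% of genes). Wild-type BioNICD gave 8 falls and 1 rise (33.6% and 32.0%). Nop14 and Noc4l encode proteins that bind each other in the small subunit processome, and their RNAs went opposite ways. Nop14 (mm9 chromosome 5, 34981185 to 35002797) held 41.4 and 51.9 CPM in the set 1 controls and 75.8 and 69.0 with the guides there, and 60.7, 59.8, 61.6 and 56.4 against 86.6, 89.2, 88.2 and 90.2 in set 2. All guide samples were above all controls (log2 fold change 0.58 ± 0.05 (SE), adjusted p = 7.56e-08). Noc4l (mm9 chromosome 5, 111077438 to 111082401) held 62.8 and 60.1 CPM in the set 1 controls and 40.8 and 36.7 with the guides, and 65.2, 67.4, 64.7 and 64.0 against 56.8, 55.4, 50.2 and 54.2 in set 2. All its guide samples were below all controls (log2 fold change -0.40 ± 0.06 (SE), adjusted p = 4.75e-05), and the fall was larger in set 1 (-0.67) than in set 2 (-0.27; difference adjusted p = 0.0107). With wild-type BioNICD the directions were exchanged: Nop14 held 44.3 and 41.6 CPM against 59.0 and 63.9 with DEP (log2 fold change -0.52 ± 0.06 (SE), adjusted p = 3.43e-08). Noc4l held 66.5 and 65.1 CPM against 57.3 and 50.9 (log2 fold change 0.28 ± 0.05 (SE), adjusted p = 0.000102), a rise without overlap. 4-OHT lowered both, Nop14 from 65.4 and 71.0 CPM to 54.6 and 56.1 (-0.29 ± 0.05) and Noc4l from 64.0 and 60.8 to 56.2 and 55.1 (-0.16 ± 0.05). The Noc4l call with 4-OHT is lost under 4 of 10 alternatives, among them leaving out ethanol replicate 1 or either 4-OHT replicate. Both genes lie on chromosome 5, whose 682 tested genes had a median of -0.33 with the guides. Relative to that median the guide effect was 0.91 for Nop14 and -0.07 for Noc4l.

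Nob1 (mm9 chromosome 8, 109936389 to 109948938), the nuclease that makes the last cut of the small subunit RNA, had the largest rise with the guides. Controls held 24.5 and 25.8 CPM in set 1 and 33.1, 32.7, 32.1 and 35.5 in set 2, and guide samples 48.0 and 38.1 and 45.9, 47.4, 51.0 and 51.5. All guide samples were above all controls (log2 fold change 0.61 ± 0.07 (SE), adjusted p = 6.79e-07). The 572 tested genes of chromosome 8 had a median of 0.51 in this comparison, and Nob1 stood 0.11 above it. Wild-type BioNICD samples held 20.01 and 21.4 CPM against 29.99 and 30.8 with DEP (log2 fold change -0.57 ± 0.07 (SE), adjusted p = 2.37e-07), and 4-OHT gave -0.15 (adjusted p = 0.0555). Rrp12 (mm9 chromosome 19, 41937341 to 41970643), a factor in export of the small subunit precursor, fell with the guides. Its level was 39.8 and 42.8 CPM in the set 1 controls against 35.9 and 30.1, and 43.1 to 45.5 in set 2 against 33.8 to 39.1, without overlap (log2 fold change -0.29 ± 0.06 (SE), adjusted p = 0.000259). Ltv1 (mm9 chromosome 10, 12898444 to 12912943), another export and maturation factor, was 48.3 and 49.6 CPM in the set 1 controls against 43.8 and 46.1, and 65.2 to 71.6 against 61.0 to 65.4 in set 2, where the groups overlapped. Its call (log2 fold change -0.12 ± 0.04 (SE), adjusted p = 0.0243) is lost under 9 of 21 alternatives, among them leaving out guide replicate 3, 4 or 5 or control replicate 4. In the NICD comparisons Rrp12 was not called (-0.11 and 0.02), and Ltv1 fell with wild-type BioNICD (-0.14 ± 0.05). That Ltv1 call is lost under 5 of 10 alternatives, among them DESeq2 and leaving out wild-type replicate 1 or DEP replicate 1.

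Utp14a (mm9 chromosome X, 45610111 to 45635626), a component of the small subunit processome, fell from 62.1 and 62.7 CPM with DEP to 39.97 and 38.8 with wild-type BioNICD (log2 fold change -0.67 ± 0.05 (SE), adjusted p = 1.25e-10). A gene on the opposite strand, 9530027J09Rik, shares 19.5% of its exon length, and the counting recorded no strand option. The guides raised Utp14a (0.16) and 4-OHT lowered it (-0.15). The 4-OHT call is lost under 4 of 10 alternatives, among them DESeq2 and leaving out ethanol replicate 1 or 4-OHT replicate 1. Tsr1 (mm9 chromosome 11, 74711582 to 74722842), a late small subunit factor, was the member raised by 4-OHT, at 61.7 and 61.7 CPM against 55.8 and 56.3 with ethanol (log2 fold change 0.15 ± 0.05 (SE), adjusted p = 0.0156). That call is lost under 6 of 10 alternatives, including without ethanol replicate 1 or either 4-OHT replicate, and the opposite-strand gene Srr shares 34.2% of the Tsr1 exon length. The guides also raised Tsr1 (0.19), and wild-type BioNICD gave 0.10, not called. Wdr43, Heatr1 and Utp18, early processome proteins, rose with the guides (0.11, 0.18 and 0.37) and fell with wild-type BioNICD (-0.30, -0.28 and -0.27). 4-OHT lowered Heatr1 (-0.21) and Wdr43 (-0.09), and Utp18 was not called (-0.11). The Wdr43 call is lost under 7 of 10 alternatives, among them leaving out any 1 of the 4 NICD-ER samples. Utp15, a partner of Heatr1 and Wdr43, was called with wild-type BioNICD alone (-0.20), and the large scaffold protein Utp20 with 4-OHT alone (-0.22). The RNA-binding protein Nop9 and the GTPase Bms1 were called in none of the 3 comparisons, with log2 fold changes between -0.08 and 0.08. An opposite-strand gene, Cideb, shares 22.3% of the Nop9 exon length.

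Large subunit factors gave 6 rises of 10 with the guides (31.8% of all genes rose) and 4 members not called. They gave 7 falls with 4-OHT (17.2% of genes), and 7 falls and 1 rise with wild-type BioNICD (33.6% and 32.0%). Pes1, Bop1 and Wdr12 form a complex needed for large subunit RNA processing. The guides raised Bop1 (0.16 ± 0.06) and Wdr12 (0.19 ± 0.05), and Pes1 was at 0.01, not called. The Bop1 call is lost under 5 of 21 alternatives, among them leaving out control replicate 5. Pes1 and Wdr12 fell with 4-OHT (-0.17 and -0.21) and with wild-type BioNICD (-0.22 and -0.36). Bop1 was called in neither (-0.07 and 0.06). Near-identical pseudogene copies of Pes1, of which Gm5910 covers 60.5% of its transcript, make the Pes1 counts uncertain. Nop16 (mm9 chromosome 13, 54685552 to 54691435), a nucleolar assembly protein, held 31.2 and 31.0 CPM with wild-type BioNICD against 46.4 and 49.7 with DEP (log2 fold change -0.64 ± 0.06 (SE), adjusted p = 1.38e-09). 4-OHT samples held 38.2 and 38.6 CPM against 50.3 and 50.03 with ethanol (log2 fold change -0.38 ± 0.05 (SE), adjusted p = 3.68e-06), and the guides left it uncalled (0.02). Nop2, an RNA methyltransferase whose promoter holds an E-box, held 82.2 and 76.7 CPM with 4-OHT against 101 and 98.6 with ethanol and 63.6 and 61.0 with wild-type BioNICD against 73.5 and 77.1 with DEP. Both were falls (-0.32 and -0.28), and the guides raised it (0.38 ± 0.06).

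Rrp1b (mm9 chromosome 17, 32173107 to 32199807), a nucleolar partner of the processing machinery, went against the majority with wild-type BioNICD, at 117 and 115 CPM against 99.4 and 95.8 with DEP (log2 fold change 0.25 ± 0.04 (SE), adjusted p = 1.23e-05). 4-OHT lowered it from 110.0 and 110.4 CPM to 96.1 and 97.0 (-0.18 ± 0.04), and the guides raised it (0.32 ± 0.04). Rrp15 and Rrs1, assembly factors of the large subunit, rose with the guides (0.48 and 0.35) and fell with wild-type BioNICD (-0.19 and -0.40), and neither was called with 4-OHT (-0.07 and -0.11). The Rrp15 call with wild-type BioNICD is lost under 2 of 10 alternatives. Nle1, a late assembly factor at 10.7 to 21.1 CPM, fell in both NICD comparisons (-0.28 and -0.29) and Noc3l with 4-OHT alone (-0.20). The Nle1 calls are lost under 2 of 10 alternatives with 4-OHT and 4 of 10 with wild-type BioNICD. The Noc3l call is lost under 2 of 10. With the guides Nle1 and Noc3l were at 0.19 and -0.13, not called.

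The 3 genes of polyamine and pyrimidine synthesis, which feed growth rather than build ribosomes, all fell in both NICD comparisons. Of all genes, 17.2% fell with 4-OHT and 33.6% with wild-type BioNICD. Srm (mm9 chromosome 4, 147965622 to 147968728), spermidine synthase, was the member that fell most with the guides. Controls held 67.5 and 66.7 CPM in set 1 and 98.8, 103, 98.9 and 102 in set 2, against 48.0 and 42.1 and 70.0, 68.8, 71.7 and 73.6 with the guides. Groups did not overlap within a set (log2 fold change -0.53 ± 0.04 (SE), adjusted p = 1.76e-08). 4-OHT samples held 59.0 and 58.1 CPM against 82.1 and 77.5 with ethanol (log2 fold change -0.44 ± 0.04 (SE), adjusted p = 3.03e-08), and wild-type BioNICD samples 63.6 and 62.5 against 84.0 and 86.3 with DEP (log2 fold change -0.44 ± 0.05 (SE), adjusted p = 1.71e-08). Srm was thus lower in all 3 comparisons. Odc1 (mm9 chromosome 12, 17551679 to 17558308), ornithine decarboxylase, the rate-limiting enzyme of polyamine synthesis, had the largest fall with 4-OHT, at 32.1 and 32.8 CPM against 44.4 and 47.3 (log2 fold change -0.49 ± 0.06 (SE), adjusted p = 3.03e-07). It fell with wild-type BioNICD (-0.25 ± 0.06) and was not called with the guides (0.08), and near-identical copies, of which Gm7993 covers 62.6% of its transcript, make its counts uncertain. Cad, which starts pyrimidine synthesis, fell by 0.22 and 0.32 in the NICD comparisons and was not called with the guides (-0.02). It lies on chromosome 5 and stood 0.31 above that chromosome's median of -0.33 with the guides.

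The 100 other genes of the pathway are a list not limited to genes that moved, and 99 were tested. With 4-OHT 39 fell (39.4%, against 17.2% of all genes and 64.3% of the members) and 4 rose, with a median of -0.10. With wild-type BioNICD 66 fell (66.7%, against 33.6% of all genes and 73.8% of the members) and 9 rose, with a median of -0.19. The guides raised 30 (30.3%, against 31.8% of all genes and 52.4% of the members) and lowered 27, with a median of 0.00. The difference between this list and the members was not tested. The largest changes with the guides were the fall of Znrd1 and a rise of the processome gene Utp11l (log2 fold change 1.17 ± 0.05 (SE), adjusted p = 8.81e-12). Ppan, a large subunit factor, fell most with 4-OHT (-0.52 ± 0.04) and also with wild-type BioNICD (-0.73). Nop10, an H/ACA protein, fell most with wild-type BioNICD (-1.06 ± 0.06), and the helicase gene Ddx54 rose in both (0.44 and 0.71).

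Myc was measured beside the members because many of them are known Myc targets. Its level was 147 and 154 CPM in the set 1 controls and 264 and 224 with the guides there, and 194 to 204 against 263 to 275 in set 2. It rose with the guides (log2 fold change 0.52 ± 0.05 (SE), adjusted p = 2.45e-07). 4-OHT samples held 108 and 108 CPM against 230.0 and 227 with ethanol (log2 fold change -1.08 ± 0.04 (SE), adjusted p = 1.26e-16), and wild-type BioNICD samples 131 and 127 against 248 and 229.7 with DEP (log2 fold change -0.89 ± 0.04 (SE), adjusted p = 1.78e-15). Myc thus stood on the same side as most members in each comparison, and its part in their levels was not tested. Max, the partner of Myc in binding the E-box, changed little (0.10, -0.13 and -0.10, called with 4-OHT alone). Of the Myc antagonists, Mxd4 rose with the guides (1.80 ± 0.07) and fell with 4-OHT (-1.06), and Mxd1 rose with wild-type BioNICD (2.04 ± 0.06).

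The 4-OHT and BioNICD effects differed for 22 members. The 4-OHT effect was above the BioNICD effect for 16 (26.4% of genes) and below it for 6 (25.1%). For Gnl3 (0.54 ± 0.06, adjusted p = 4.66e-08), Utp14a, Nop58, Nob1 and Npm1 both values were under 0 and BioNICD gave the lower one. For Polr1a, Polr1b and Odc1 both effects were falls and 4-OHT gave the larger (differences -0.18, -0.31 and -0.24). Noc4l, Rrp1b and Polr1e were raised by wild-type BioNICD, and 4-OHT lowered Noc4l and Rrp1b. The differences were -0.44 ± 0.07, -0.43 ± 0.06 and -0.35 ± 0.09. Besides time and fusion, these comparisons differ in their reference, since ethanol samples carry NICD-ER and DEP samples a mutant NICD, and these cannot be told apart.

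**Figure D4:**
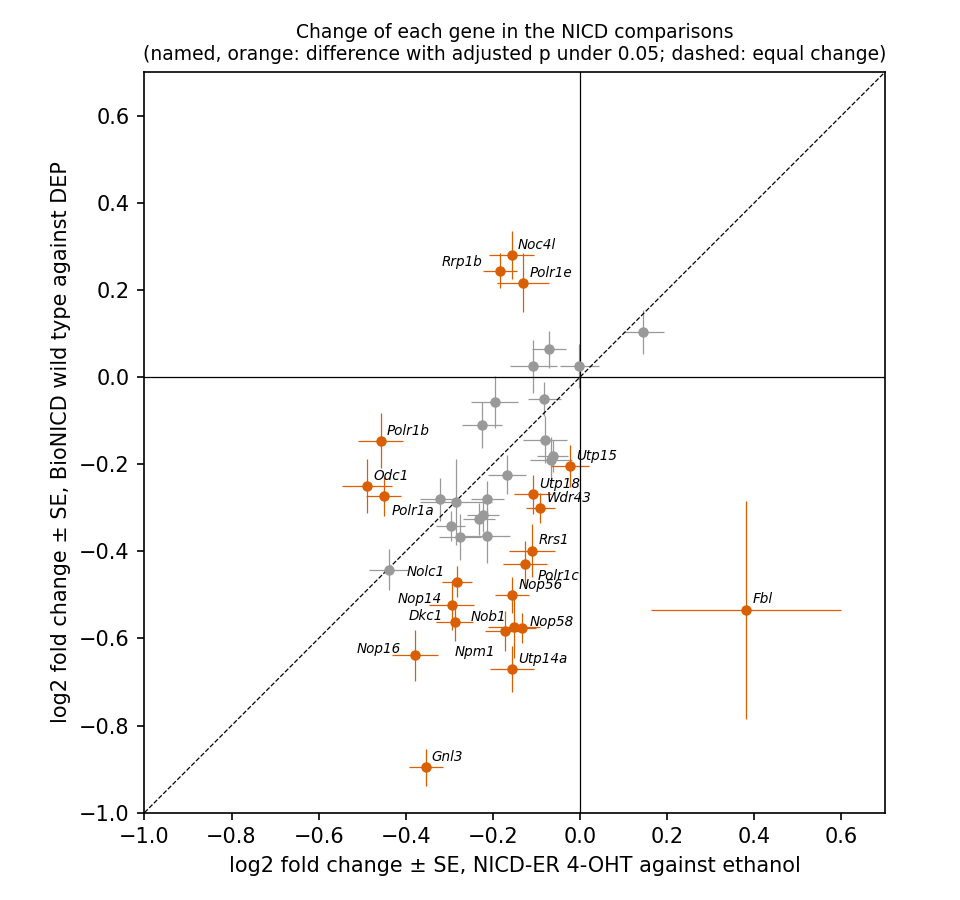
Log2 fold change of each gene with 4-OHT (horizontal axis) against that with wild-type BioNICD (vertical axis), with standard errors as bars, a dashed line for equal change and names for the 22 genes, in orange, whose effects differed. Most genes lie in the lower left part, Gnl3 is the lowest, and Noc4l, Rrp1b and Polr1e lie in the upper left.

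Levels also differed between the lines. With the set as a term, 31 members were higher and 3 lower in the NICD-ER line with ethanol than in the CRISPR control (29.4% and 26.9% of 11988 genes). The DEP line had 19 higher and 2 lower (20.7% and 20.6%). Both used the same controls. These counts rest on the set term: without it they were 4 and 3, and 1 and 5, and with set 1 samples alone they were 26 and 3, and 17 and 1. The median of the members in the DEP line turned from 0.15 to -0.11 without the set term, and in the ethanol line it went from 0.41 to 0.09. Within set 1 the ethanol group had the highest mean level for 25 of 42 members and wild-type BioNICD the lowest for 22. This ranking was not made for other genes, so no share over all genes stands beside it. The largest difference was that of Polr1b (log2 fold change 1.33 ± 0.09 (SE), adjusted p = 8.42e-11). Its level was 54.9 and 56.1 CPM with ethanol against 25.4 and 23.6 in the set 1 controls. The fold changes here come from all 20 samples, with 1 set term common to controls and guide samples. For Polr1b the sets differed more in the guide samples than in the controls, so 1.33 is not the change between the set 1 values shown. Npm1 was lower in the ethanol line, at 298 and 310.0 CPM against 426 and 457 (log2 fold change -0.48 ± 0.08 (SE), adjusted p = 3.6e-05). Vector, selection and solvent differ between these lines along with the construct and cannot be told apart.

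Per kilobase of exon, the most abundant member was Npm1, with a mean of 213 CPM per kb over the 6 groups, followed by Nop58 (124), Ncl (96.2) and Wdr43 (78.9). The group means of Npm1 (150.3 to 286 CPM per kb) lay above those of Nop58 (90.1 to 139), which overlapped those of Ncl (68.1 to 115), and these overlapped those of Wdr43 (67.5 to 91.6). Polymerase I subunits ran from 62.1 CPM per kb for Polr1c to 8.41 for Polr1e, and the lowest members were Utp20 (7.70) and Fbl (2.59).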

How the data were processed

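RNA from 20 samples was sequenced after ribosomal RNA depletion with a stranded kit, per the labels' protocols. The deposited values are raw read counts per gene, made by the authors with featureCounts 1.5.0 over the exons of a UCSC mm9 annotation, with no strand option, per the file headers. The submitters' processing notes also name FastQC, Trimmomatic, STAR, DESeq2 and mm9, whose other versions were not given in the sources at hand. Counts were tested with edgeR 4.0.16 in R 4.3.3 (TMM, filterByExpr, quasi-likelihood test, Benjamini-Hochberg over all genes), and the script was tested on simulated data. The guide comparison used the 12 CRISPR samples with submission set as a covariate, the NICD comparisons 1 model of 8 samples, and the comparisons between lines all 20 samples with set. The SE is the absolute log2 fold change over the square root of F. DESeq2 1.42.0, other scalings, filters, sets and left-out samples were alternatives. Depth limits low members such as Fbl most. The biological coefficient of variation was 7.95% in the CRISPR model and 3.58% in the NICD model. In pairs of replicates the mean chi-square per gene over genes with at least 20 counts was 2.68 to 95.1, where sampling noise gives 1, so every sample was counted. In set 2 it was 2.78 for guide replicates 3 and 4 and 3.37 for 5 and 6, but 41.0 to 57.7 between these pairs. Control replicate 6 stood at 34.9 to 39.1 from controls 3 to 5, which were at 3.10 to 4.61 among themselves. The ethanol pair was at 20.5, against 2.68 to 4.40 for the other NICD pairs. The main fits had no term for these differences. Members given sample by sample were those with the 4 largest called changes in each direction of a comparison, and the 4 with the largest opposite changes between guides and NICD. Other genes were added after their values were seen. Members and lists were chosen with earlier results of these data known. Near-identical copies were sought in GENCODE M21 transcripts (at least 95% identity over at least 50%). No comparison uses the mm9 positions.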

Additional observations from a re-analysis of the deposited data

Results flagged for a closer look

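Of 86 groups checked, 7 had a sample far from the others, where chance gives about 1 in 20 groups. All 7 were guide samples of submission set 1. That chance rate is for samples of 1 population, while the groups checked pool both sets, whose summed member levels differ by 37.1% in the controls and 40.6% in the guide samples. Replicate 2 was the low sample for Bop1 (95.95 CPM), Nop2 (82.82 CPM), Odc1 (32.15 CPM), Rrp9 (62.91 CPM) and Rrs1 (38.38 CPM). Replicate 1 was the low sample for Nop9 (60.19 CPM) and the high sample for Polr1c (113.4 CPM).

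The 4-OHT effect differed from the BioNICD effect by edgeR's test of the difference for 22 members. Such differences were common over all genes: 26.4% were called over 0 and 25.1% under 0, against 38.1% and 14.3% of the members. The difference on the log2 scale was over 0 for 16 of them: 0.34 for Nop56, 0.44 for Nop58, 0.92 for Fbl, 0.27 for Dkc1, 0.19 for Nolc1, 0.41 for Npm1, 0.54 for Gnl3, 0.30 for Polr1c, 0.21 for Wdr43, 0.52 for Utp14a, 0.18 for Utp15, 0.16 for Utp18, 0.23 for Nop14, 0.42 for Nob1, 0.26 for Nop16 and 0.29 for Rrs1. The Fbl value rests on 2 to 4 CPM and on samples that overlap. It was under 0 for 6: -0.18 for Polr1a, -0.31 for Polr1b, -0.35 for Polr1e, -0.44 for Noc4l, -0.43 for Rrp1b and -0.24 for Odc1.

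The guide effect was higher in set 2 than in set 1 for 5 members (11.9%, against 8.19% of all genes). The differences were 0.37 for Polr1b, 0.26 for Utp15, 0.44 for Utp20, 0.39 for Noc4l and 0.25 for Wdr12. For Polr1b and Wdr12 set 2 gave the larger rise and for Noc4l the smaller fall. Utp15 and Utp20 were at -0.20 and -0.30 in set 1 and at 0.07 and 0.14 in set 2. Without guide replicate 2 the test called 10 members higher and 9 lower, and without control replicate 1 it called 0.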

How the results depend on the processing

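The 42 members' counts kept within 1.5 times their value under most alternatives. With the guides, members higher fell from 22 to 11 without the submission set and to 5 within set 1, where 2 were lower. Without the 3 samples highest in Rn45s the guides gave 18 members higher and 3 lower, where 3064 and 2805 of 10767 genes were called. Gnl3, Wdr43, Heatr1, Bop1 and Ltv1 lost their guide call there. Leaving out 1 sample gave 0 to 2 members higher with 4-OHT. DESeq2, upper quartile scaling and a fit of all 20 samples each gave 0 there, against 1. Members lower with 4-OHT ran from 18 (all 20 samples) to 35 (upper quartile scaling), and with wild-type BioNICD from 26 to 33. For the difference of the guide effect between sets, no filter gave 2 members higher and leaving out the 3 samples highest in Rn45s gave 0. Leaving out 1 sample gave 0 to 10 higher and 0 to 9 lower, and both highest counts came without guide replicate 2. In the DEP line against control, members higher fell to 1 without the set. Members lower there were 5 without the set, 1 with upper quartile scaling and 1 with set 1 alone. In the ethanol line 4 were higher without the set. The members' median in the DEP line turned from 0.15 to -0.11 without the set. The named results (25 pairs of a gene and a comparison) had 338 alternatives, of which 27 lost the call, all for Ltv1, Polr1b, Tsr1, Rrp12 and Polr1e. Relative to chromosome medians, 31 members were over 0 with the guides and 9 under 0, against 30 and 12.

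Replicate numbers were tested as a pairing. Deviations from group means correlated at 0.27 to 0.45 across the 6 CRISPR numbers, but deviations from group and set means at -0.08 to 0.12, and the NICD pairs at 0.03 and -0.01. The numbers were therefore not taken as a pairing beyond the set. With the replicate block the guides gave 21 higher and 3 lower, 4-OHT 1 and 31, wild-type BioNICD 3 and 31, and the difference of effects 17 and 7.

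Low counts limit Fbl alone among the members. Scaling without TMM factors or without Rn45s moved the summed levels of the NICD groups by more than their spread.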
